A study of Mus musculus with 4 samples.

Results

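The genes described here are Sox2, Sox4, Sox7, Sox8, Sox10, Sox11, Sox12, Sox17 and Sox18, members of the Sox family outside the chondrogenic trio of Sox5, Sox6 and Sox9. They were taken by name, as 9 genes among the 22238 protein-coding genes of the NCBIM37 annotation. Open chromatin was measured by ATAC-Seq, in which the Tn5 transposase inserts sequencing adapters where DNA is accessible. The cells were primary chondrocytes from the rib cartilage of newborn mice, used within 2 passages per the study methods. A peak was assigned to a promoter when its summit lay within 1 kb of the TSS, and to a gene's window when its summit lay in the gene body or within 50 kb of it.

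There were 4 libraries. The group labelled Cho had 2 replicates, Cho rep 1 and Cho rep 2, with no genotype given in the labels. WT had 1 library, and mice homozygous for deletions of E160 and E308, which are elements upstream of Sox9, had 1 library, called the double deletion. The study describes WT and deletion mice as littermates. Neither has a replicate, so differences between them are differences between 2 libraries and were not tested.

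Sox proteins bind DNA through an HMG box, which sits in the minor groove and bends the double helix. The family is divided by sequence into groups whose members often act redundantly. Sox9, of group E, sets the chondrocyte fate, and Sox5 and Sox6, of group D, support it. The genes described here are best known in other tissues. Sox2 of group B1 maintains pluripotent and neural stem cells. Sox4, Sox11 and Sox12 of group C act in neural and mesenchymal progenitors. Sox8 and Sox10 of group E act in the neural crest and its glia, and Sox7, Sox17 and Sox18 of group F act in endothelium, with Sox17 also in endoderm.

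In NCBIM37, Sox2 (ENSMUSG00000074637) lies on chromosome 3 from 34548927 to 34551383, within an intron of the noncoding gene Sox2ot. In group C, Sox4 (ENSMUSG00000076431) lies on chromosome 13 from 29040788 to 29045582, Sox11 (ENSMUSG00000063632) on chromosome 12 from 28025562 to 28027574, and Sox12 (ENSMUSG00000051817) on chromosome 2 from 152219347 to 152223782. In group E, Sox8 (ENSMUSG00000024176) lies on chromosome 17 from 25702837 to 25707631 and Sox10 (ENSMUSG00000033006) on chromosome 15 from 78985343 to 78994920. In group F, Sox7 (ENSMUSG00000063060) lies on chromosome 14 from 64562511 to 64569569, Sox17 (ENSMUSG00000025902) on chromosome 1 from 4481009 to 4486494, and Sox18 (ENSMUSG00000046470) on chromosome 2 from 181404541 to 181406345. Sox2 and Sox7 are on the plus strand and the others on the minus strand. All positions from the TSS are given in the direction of transcription, with negative values upstream.

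The reference sequences at the open sites are shown first, with the promoter and the distal stretches searched for different letters. Each is 101 bp of NCBIM37 on the strand of the gene. The promoter stretches are centred on the WT summit closest to the TSS on its upstream side, and that of Sox18, which had no WT promoter peak, lies 101 bp upstream of the TSS at its middle. Capitals mark GGGCGG (GC box) on either strand, and the letters TATAAA were searched as well and not found in them.
Sox2 promoter (chr3:34548754-34548854, plus strand): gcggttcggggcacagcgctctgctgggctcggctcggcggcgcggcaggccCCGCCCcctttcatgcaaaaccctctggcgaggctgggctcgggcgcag
Sox4 promoter (chr13:29045660-29045760, minus strand): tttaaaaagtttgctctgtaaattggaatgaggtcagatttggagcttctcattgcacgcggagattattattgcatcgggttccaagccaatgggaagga
Sox11 promoter (chr12:28027579-28027679, minus strand): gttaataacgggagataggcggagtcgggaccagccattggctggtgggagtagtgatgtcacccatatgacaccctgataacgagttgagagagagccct
Sox12 promoter (chr2:152223896-152223996, minus strand): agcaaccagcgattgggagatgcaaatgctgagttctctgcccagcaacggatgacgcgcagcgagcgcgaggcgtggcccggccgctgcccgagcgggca
Sox8 promoter (chr17:25707660-25707760, minus strand): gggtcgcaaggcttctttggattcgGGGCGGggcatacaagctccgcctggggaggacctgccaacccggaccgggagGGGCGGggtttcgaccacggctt
Sox7 promoter (chr14:64562318-64562418, plus strand): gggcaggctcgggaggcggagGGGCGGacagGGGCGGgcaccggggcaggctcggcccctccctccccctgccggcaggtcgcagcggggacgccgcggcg
Sox18 promoter (chr2:181406396-181406496, minus strand): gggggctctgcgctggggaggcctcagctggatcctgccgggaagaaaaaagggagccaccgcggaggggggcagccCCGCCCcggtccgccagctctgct

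The Sox7, Sox8 and Sox2 promoters held GGGCGG, and so did the Sox18 promoter without a WT peak, while the 3 promoters of group C held none in these windows. The promoters of Sox10 and Sox17, also without a WT peak and not shown, held none. The distal stretches are centred on the WT summit of the strongest distal site of a gene among those called in every library. Of the 8 genes with such a site, 5 are shown, and those of Sox2, Sox4 and Sox8 held no TGANTCA. Capitals mark TGANTCA (AP-1). The SOX letters ACAATG and ACAAAG and the RUNX letters TGTGGT were searched on both strands and not found in these windows.
Sox11 distal site (chr12:27979232-27979332, minus strand): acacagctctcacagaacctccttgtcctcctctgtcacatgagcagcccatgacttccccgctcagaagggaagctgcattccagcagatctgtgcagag
Sox12 distal site (chr2:152231904-152232004, minus strand): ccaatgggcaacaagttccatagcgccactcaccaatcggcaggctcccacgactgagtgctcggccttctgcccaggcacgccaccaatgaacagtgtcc
Sox10 distal site (chr15:78962084-78962184, minus strand): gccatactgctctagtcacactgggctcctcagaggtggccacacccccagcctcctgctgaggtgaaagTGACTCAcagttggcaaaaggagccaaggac
Sox7 distal site (chr14:64581694-64581794, plus strand): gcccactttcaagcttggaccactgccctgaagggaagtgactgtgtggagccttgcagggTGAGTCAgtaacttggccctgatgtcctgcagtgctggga
Sox18 distal site (chr2:181413672-181413772, minus strand): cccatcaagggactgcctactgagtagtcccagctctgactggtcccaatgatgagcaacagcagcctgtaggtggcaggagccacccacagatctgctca

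Of the 8 sites, those at Sox10 and Sox7 each held 1 TGANTCA. A match is a description of the letters and not a binding site. In wider windows of 201 bp around all 50 distal WT summits near the 9 genes, TGANTCA was found in 7 (14%), against 22.96% of the 73514 distal WT summits of the genome. TGTGGT was found in 9 (18%), against 22.8%, ACAAAG in 5 (10%), against 13.1%, and ACAATG in 2 (4%), against 7.37%. The GC box was found in 5 (10%), against 9.64%, and TATAAA in 2 (4%), against 8.14%. The median GC content of these windows was 56.0% near the 9 genes and 49.8% over all distal summits.

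The libraries differed in size and in how their lists were made. They held 76242 peaks in Cho rep 1, 148330 in Cho rep 2, 90971 in WT and 169591 in the double deletion. Cho rep 1 was called against 1 constant background, whereas the others used local backgrounds, which lower the fold enrichment of broad open regions. Fold enrichment is the read pileup at the summit over the background, with 1 added to both. A pair of scales is therefore used for promoters, the fold enrichment and the summit pileup divided by the library's most frequent background, called the scaled pileup. The labels name mm9, but Cho rep 2 held a peak at 62.7% of promoters with GRCm38 positions and at 16.8% with NCBIM37 positions. It was read as GRCm38, and its sites were matched to the others by distance from the TSS, within 150 bp.

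The first question was which of the 9 genes had an open promoter in rib chondrocytes. A promoter peak was called for 6 of the 9 genes in Cho rep 1, where 55.3% of all promoters had one. The count was 6 in Cho rep 2, where the share of all promoters was 62.7%. It was 6 in WT, against 59% of all promoters, and 7 in the double deletion, against 64.7%. Sox2, Sox4, Sox7, Sox8, Sox11 and Sox12 were called in all 4 libraries, as were 52.7% of the 18220 genes found in both annotations. Sox17 and Sox18 were called in none, as were 28.1%. With 9 genes these shares are near the background, and the values of each gene are described below. Whether these 9 genes differ from other genes was not tested.

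Sox2, the stem cell factor, had a promoter fold enrichment of 8.45 in Cho rep 1, 14.7 in Cho rep 2, 8.42 in WT and 8.74 in the double deletion. Its scaled pileup was 13.9, 23.5, 36.0 and 28.8, in the same order. The fold enrichments of Cho rep 1, WT and the double deletion lay close together, and Cho rep 2 was the highest. By scaled pileup, Sox2 was at percentile 15.1 of called promoters in WT, so its promoter was open but weakly so. In WT the peak ran from 34548709 to 34548862, 154 bp in all, with a pileup of 13 reads at the summit.

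The promoters of group C, Sox4, Sox11 and Sox12, had the 3 highest scaled pileups of the 9 genes in every library. Sox8 was close behind in the double deletion, with a pileup of 40 reads against 43 at Sox4. By fold enrichment this order did not hold, and Sox8 was the highest in the double deletion. The median fold enrichment over all called promoters was 12.2 in Cho rep 1, 17.7 in Cho rep 2, 12.7 in WT and 12.4 in the double deletion. The highest of the 9 genes had 24.9, 15.9, 10.9 and 12.3, above this median in Cho rep 1 only. In WT, Sox4 was at percentile 18.4 of called promoters by fold enrichment and at 55.1 by pileup. Sox4, a factor of progenitor survival, had a scaled pileup of 32.2 in Cho rep 1, 73.6 in Cho rep 2, 88.6 in WT and 68.7 in the double deletion. Its fold enrichment was 19.0, 8.65, 7.80 and 6.43. Cho rep 1 was the highest by fold enrichment and the lowest by scaled pileup. The local background at Sox4 was 15.8 in Cho rep 2, where the library background was 1.96. In WT the Sox4 peak was 616 bp wide.

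Sox11, its close relative with a short transcript model in NCBIM37, had a scaled pileup of 26.3, 75.1, 94.2 and 94.2, in the same order of libraries. Its fold enrichment was 15.6, 15.9, 10.9 and 11.6. Sox11 had the highest mean log2 fold enrichment of the 9 genes over the 4 libraries, 3.73. The 3 genes with the most similar fold enrichments, by Euclidean distance of the log2 values over the 4 libraries among 9602 genes, were Wls at 0.0905, Map3k8 at 0.0915 and Psip1 at 0.103. A smaller but separate WT summit lay at −713 bp from the Sox11 TSS, with a fold enrichment of 4.65 in WT and 4.64 in the double deletion.

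Sox12, the third gene of group C, had the strongest promoter summit of the 9 genes at −858 bp in Cho rep 1, with a fold enrichment of 24.9. This summit lay at −872 bp with 11.1 in Cho rep 2, at −875 bp with 7.42 in WT and at −870 bp with 7.40 in the double deletion. A further summit closer to the TSS, between −137 and −232 bp, had fold enrichments of 15.2, 7.89, 6.84 and 6.21. The scaled pileup at the upstream summit was 42.4, 94.5, 105 and 87.9. In WT, 4 separate summits lay within 1 kb of the Sox12 TSS, at −875, −164, 222 and 694 bp, and each had a counterpart in the double deletion and in Cho rep 2. Cho rep 1 spanned the 3 summits at −164, 222 and 694 bp with 1 interval.

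**Figure D1:**
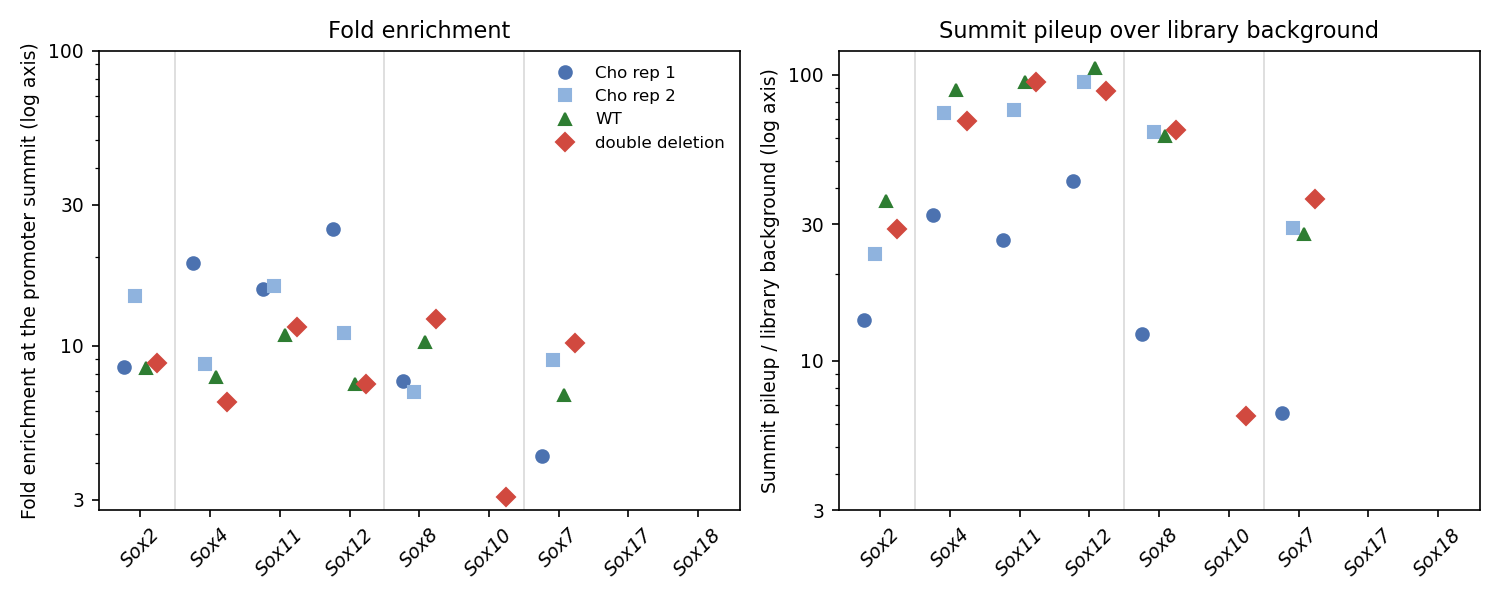
Promoter peaks of the 9 Sox genes in each library, as fold enrichment (left) and as summit pileup over the library background (right), both on log axes, with each point 1 library and grey lines dividing groups B1, C, E and F. By scaled pileup Sox4, Sox11 and Sox12 are the highest in each library, Cho rep 1 is the lowest library throughout, and Sox17 and Sox18 have no point.

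In group E, Sox8 and Sox10 stood apart from each other. Sox8, a neural crest and gonad factor close in sequence to Sox9, had a promoter fold enrichment of 7.60 in Cho rep 1, 6.97 in Cho rep 2, 10.3 in WT and 12.3 in the double deletion. Its scaled pileup was 12.4, 62.9, 60.9 and 63.9, so that 3 libraries were nearly equal and Cho rep 1 was lower. For comparison, the Sox9 promoter had scaled pileups of 31.4, 96.1, 102 and 91.1.

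Sox10, which drives melanocyte and glial fates, was called at the promoter in the double deletion only. That summit lay at 913 bp with a fold enrichment of 3.07 and a pileup of 4, the smallest pileup of any peak of that library. In Cho rep 2 a summit with a fold enrichment of 4.40 lay at 1086 bp, just outside the window. The Sox10 call was absent at a −log10 q of at least 5 and among the 76242 strongest peaks. Among all promoters, the called share was 55.3% in Cho rep 1, 62.7% in Cho rep 2, 59% in WT and 64.7% in the double deletion. Of 10 Schwann cell and glia markers, 5 had a promoter peak in Cho rep 1 and 7 in each of the other libraries, and Foxd3 had none in any. Their part in the Sox10 values was not tested.

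In group F, only Sox7 had an open promoter. Sox7, an early endothelial factor, had a fold enrichment of 4.22 in Cho rep 1, 8.91 in Cho rep 2, 6.81 in WT and 10.2 in the double deletion. Its scaled pileup was 6.58, 29.1, 27.7 and 36.7. Cho rep 1 was the lowest on both scales, at percentile 4.2 of called promoters, and its −log10 q of 3.67 was below 5. Further Sox7 summits lay just outside the window. They were at −1038 bp in Cho rep 1, with a higher fold enrichment of 7.18, and at −1097 bp in Cho rep 2, with 4.63. The median scaled pileup over all called promoters was 20.5, 67.5, 80.3 and 65.5. Sox7 was below it in every library, as were Sox2 and Sox8.

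Sox17, the endoderm and arterial factor, and Sox18, a factor of lymphatic vessels, had no summit within 1 kb of the TSS in any library. For Sox18, summits lay just outside, at 1131 bp in Cho rep 2 with a fold enrichment of 6.43 and at 1079 bp in the double deletion with 4.63. A window of 2 kb would count Sox18 in both, with 8 of the 9 genes called in each. Of 10 endothelial markers, 5 had a promoter peak in Cho rep 1, 4 in Cho rep 2, 5 in WT and 6 in the double deletion. The share of all promoters called was 55.3%, 62.7%, 59% and 64.7%, in the same order. The endothelial genes Cdh5, Tie1, Emcn and Egfl7 had none in any library, and Kdr, Tek, Flt1 and Cldn5 had one in each. A peak marks accessible DNA and does not measure transcription, and fewer open cells and less opening per cell cannot be told apart.

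The CpG content of the promoters was compared with these calls. CpG content was expressed as the observed over expected ratio in the 500 bp on each side of the TSS, where 94.7% of 10163 promoters at or above 0.6 and 28.9% of 12072 promoters below it had a WT peak. The 6 genes called in every library had ratios from 0.686 at Sox8 to 0.989 at Sox12. Sox10 had a ratio of 0.325 and Sox17 a ratio of 0.414, both in the CpG-poor class. Sox18 had a ratio of 0.770, close to the 0.769 of Sox7, but no promoter peak. Of the promoters at or above 0.6, 2.01% had a peak in none of the 3 libraries with NCBIM37 positions, and Sox18 was 1 of them.

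**Figure D2:**
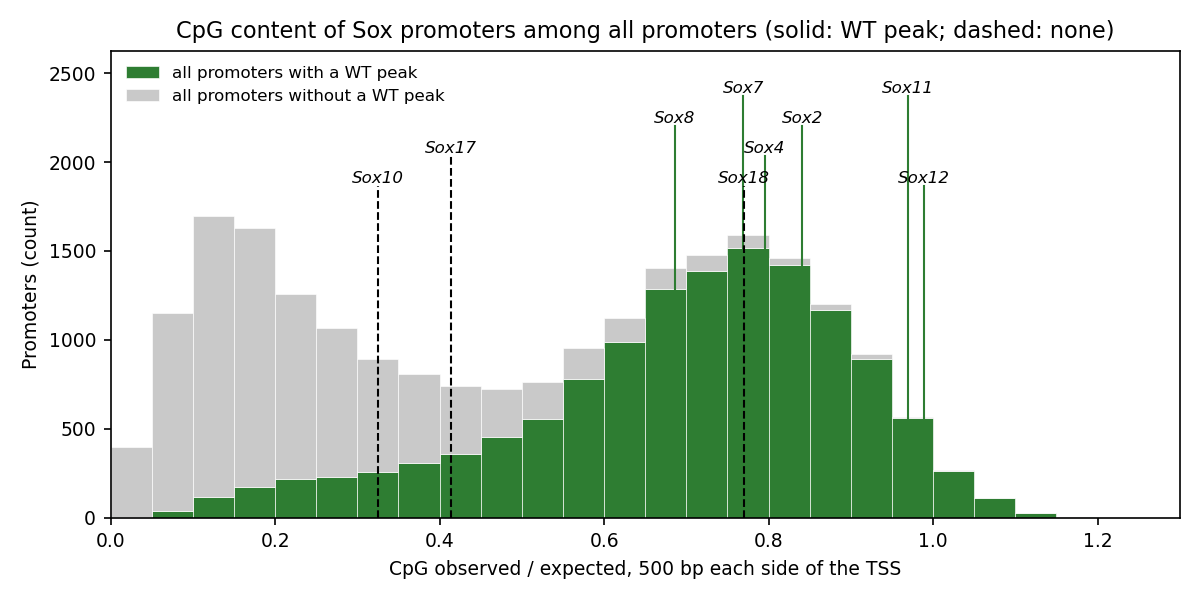
Distribution of the CpG observed over expected ratio over 22235 promoters (x axis, ratio; y axis, number of promoters), stacked by the presence of a WT peak, with lines at the 9 Sox genes, solid where a WT peak was called and dashed where none was. Sox10 and Sox17 lie in the CpG-poor class and Sox18 lies among the CpG-rich promoters beside Sox7.

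Within the 250 bp before and 50 bp after the TSS, GGGCGG was found in 6 of the 9 promoters, those of Sox2, Sox7, Sox8, Sox11, Sox12 and Sox18, and in 43.6% of all promoters. ACAAAG was found at Sox2 only, against 17.6% of all promoters. None of the 9 held ACAATG, against 10.6% of all promoters, or the AP-1 letters, against 6.95%. None held the RUNX letters, against 15.3%, or the letters TATAAA, against 13.5%. No match says only that these letters are not in this window.

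The spread between replicates could be measured in the Cho group alone. The mean promoter fold enrichment was 18.0 ± 9.80 at Sox12, 15.8 ± 0.214 at Sox11, 13.8 ± 7.32 at Sox4, 11.6 ± 4.42 at Sox2, 7.28 ± 0.448 at Sox8 and 6.57 ± 3.32 at Sox7 (SD, n = 2). In this order each gene's range of 1 SD overlapped that of its neighbour. The study calls its ATAC-Seq replicates biological, the labels do not say that they came from separate animals, and their lists were called with different backgrounds.

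The rest of the family was read as a comparison. A promoter peak was called for 5 of 10 other Sox genes in Cho rep 1, 8 of 11 in Cho rep 2, and 7 of 10 in both WT and the double deletion. For these and the marker counts below, the share of all promoters called was 55.3%, 62.7%, 59% and 64.7%, in the same order. Sox9, Sox6, Sox13 and Sox21 were called in all 4 libraries, and Sry and Sox14 in none. Among 11 chondrocyte markers, 6 were called in Cho rep 1 and 10 in each of the other libraries, with Comp called in none. Of the 8 fibroblast markers, 4, 7, 7 and 8 were called, in the order Cho rep 1, Cho rep 2, WT and deletion. The counts were 2, 5, 4 and 5 of 6 osteoblast markers, 0, 2, 1 and 4 of 6 muscle markers, 0, 2, 1 and 2 of 5 blood markers and 0, 1, 1 and 1 of 6 keratinocyte markers. Neural stem cell markers were called at 3 of 7, 6 of 8, 2 of 7 and 4 of 7, and Pax6 and Neurog2 in no library.

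The second question was how open chromatin was arranged around the genes. The 9 windows held 61 peaks in Cho rep 1, 122 in Cho rep 2, 72 in WT and 122 in the double deletion. Among the 76242 strongest peaks of each library they held 61, 63, 58 and 55, so the order of WT and the double deletion turned. The median gene of the list had 8, 12, 7 and 13 peaks, and the median protein-coding gene 6, 12, 8 and 14. Per 100 kb of window, the median gene of the list had 7.63, 11.0, 6.86 and 12.7 peaks, and the median protein-coding gene had 4.28, 8.76, 5.71 and 10.2. In WT, 11 of the 72 peaks lay at the genes' own promoters, 11 at promoters of neighbouring genes and 50 at neither, which are called distal. Sox12 had the most WT peaks, 17, and Sox17 had 0. In all, 36 WT window peaks had a counterpart in each of the other libraries, of which 11 were at Sox12, 5 each at Sox11 and Sox18, 4 each at Sox4 and Sox7, 3 at Sox8, 2 each at Sox2 and Sox10 and 0 at Sox17. A few WT peaks shared 1 wider interval of Cho rep 1.

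**Figure D3:**
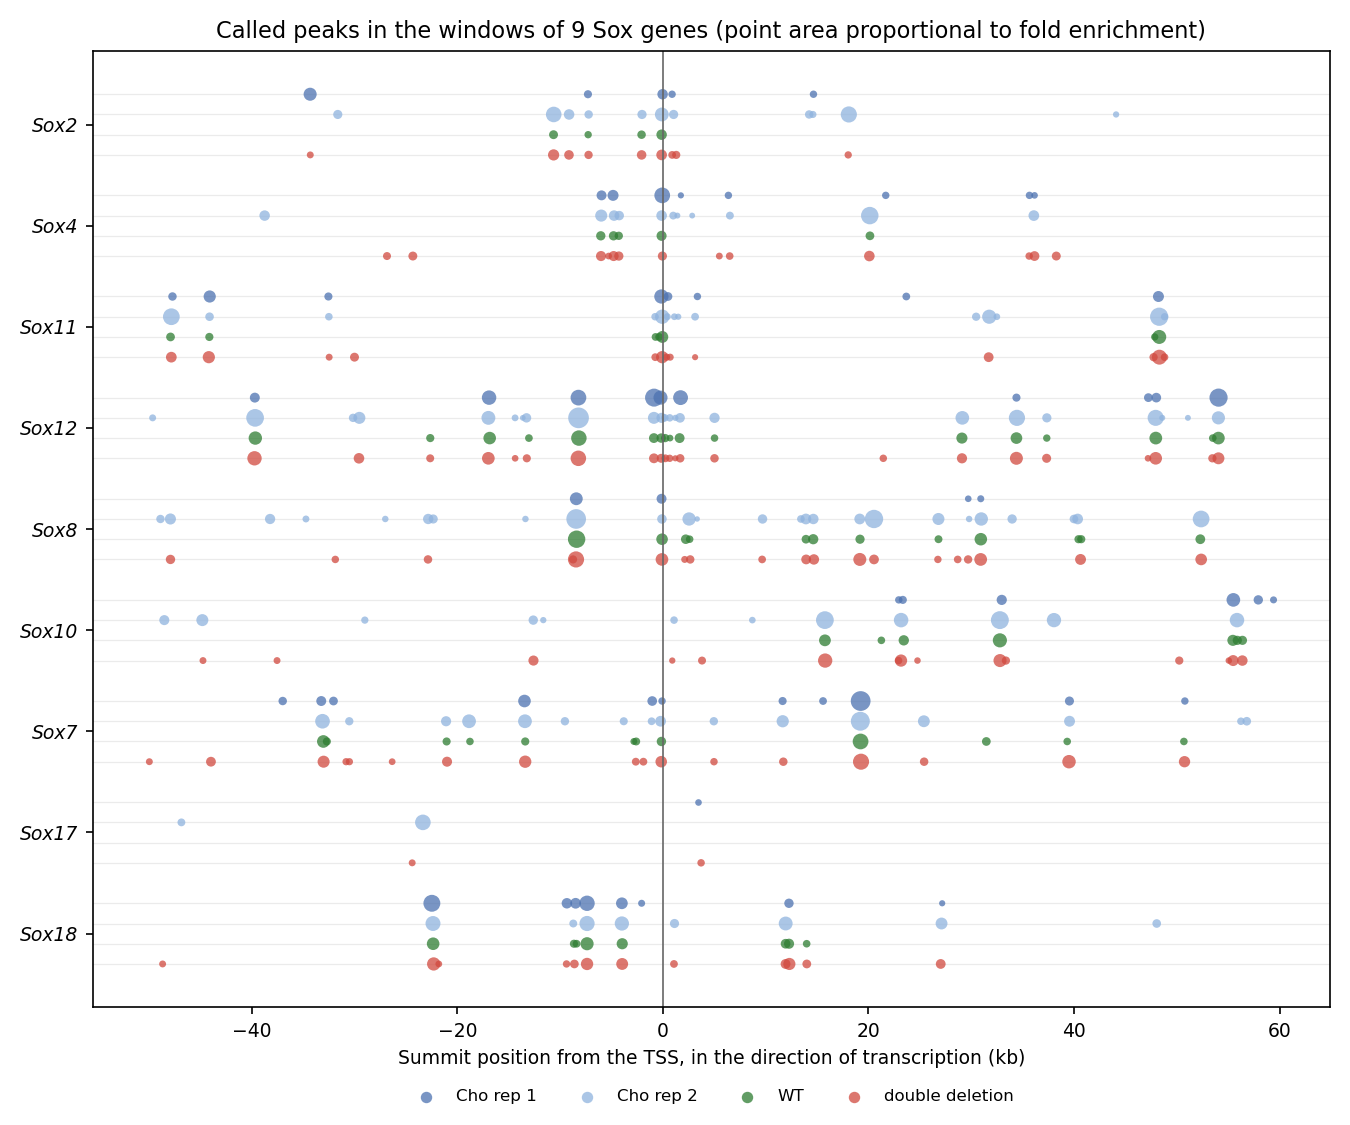
Summits of all peaks in the windows of the 9 Sox genes by distance from the TSS (x axis, kb), with 1 line of points for each library and point area proportional to fold enrichment. Shared sites stand in columns, such as the one near 19 kb at Sox7 and the one near −8 kb at Sox12, and the Sox17 window is almost empty.

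Around Sox2, WT had 4 peaks and the double deletion 9. The intronic Sox2ot site at −7.27 kb was weak in every library, with fold enrichments of 5.07 in Cho rep 1, 5.47 in Cho rep 2, 4.18 in WT and 5.34 in the double deletion. The strongest window peak differed between libraries. It lay at −34.3 kb in Cho rep 1 with 13.1, at 18.1 kb in Cho rep 2 with 20.0, at the promoter in WT with 8.42 and at −10.6 kb in the double deletion with 9.69.

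Around Sox4, 3 intergenic sites formed a cluster 4 to 6 kb upstream. Their fold enrichments in Cho rep 1, Cho rep 2, WT and the double deletion were 9.29, 6.92, 5.36 and 6.61 at −4.29 kb. They were 9.29, 8.52, 6.65 and 7.79 at −4.80 kb, where Cho rep 1 had the same interval. They were 7.60, 11.3, 6.69 and 7.85 at −6.04 kb. In WT the scaled pileups of the cluster were 58.2, 66.5 and 49.9, below the 88.6 of the promoter. In the double deletion the site at −4.80 kb equalled the promoter, at 68.7. By fold enrichment all 3 sites were below the promoter in Cho rep 1 and WT and above its 6.43 in the double deletion. In Cho rep 2 only the site at −6.04 kb was above it, 11.3 against 8.65. A site at 20.1 kb was the strongest of the window in Cho rep 2, with 23.5, and in the double deletion, with 8.61, and had no Cho rep 1 peak.

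Sox11 had an intergenic site at 48.3 kb, downstream of the gene and above its promoter in fold enrichment in 3 libraries. It ran from 27979112 to 27979576 on chromosome 12 in WT. Its fold enrichment was 9.29 in Cho rep 1, 25.6 in Cho rep 2, 15.1 in WT and 17.1 in the double deletion. On the scaled pileup it stood below the promoter in WT, 69.3 against 94.2, and above it in Cho rep 2, 78.7 against 75.1. Upstream, sites at −44.1 and −47.9 kb were called in all libraries, with WT fold enrichments of 5.15 and 5.88. No TSS of another protein-coding gene lay in the windows of Sox2, Sox4, Sox11 or Sox17.

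Sox12 lies in a gene-dense region, with Nrsn2, Trib3, Zcchc3 and 6820408C15Rik in its window. Its strongest distal site was intergenic, at −8.17 kb, from 152231870 to 152232175. The fold enrichment there was 19.0 in Cho rep 1, 32.9 in Cho rep 2, 18.4 in WT and 18.4 in the double deletion. WT and the double deletion were equal at this precision. In WT the promoter had 7.42, whereas the scaled pileups of 127 at the site and 105 at the promoter were closer to each other. Further distal sites called in every library lay at −39.7, 1.63, 34.4 and 48.0 kb, with WT fold enrichments of 13.7, 7.51, 10.5 and 12.5.

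The strongest window peak of Sox8 belonged by position to a neighbour, at the promoter of Lmf1, a lipase maturation factor, at −8.39 kb. Its fold enrichment was 12.7 in Cho rep 1, 29.6 in Cho rep 2, 23.3 in WT and 20.1 in the double deletion. An intergenic site at 30.9 kb had 3.80, 13.8, 12.1 and 12.5, low in Cho rep 1 and alike in the others. The number of peaks in the Sox8 window varied the most, from 4 in Cho rep 1 to 25 in Cho rep 2, with 12 in WT and 19 in the double deletion.

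Sox10 had sites downstream of the gene although 3 libraries had no promoter peak. The strongest in WT lay at 32.8 kb in an intron of Micall1, from 78961888 to 78962231 on chromosome 15, and carried TGANTCA. Its fold enrichment was 8.02 in Cho rep 1, 24.6 in Cho rep 2, 15.4 in WT and 13.1 in the double deletion. A site at 15.8 kb, in an intron of Polr2f, had 10.7 in WT and 15.7 in the double deletion and no peak in Cho rep 1. A further site called in all 4 libraries lay at the Micall1 promoter, at 55.9 kb.

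In Cho rep 2 the strongest distal site of the 9 genes was at Sox12 by fold enrichment. By scaled pileup it was at −33.1 kb of Sox7, with 161 against 136 at Sox12. In Cho rep 1, WT and the double deletion it was the Sox7 site near 19.2 kb on both scales. The site near 19.2 kb was intergenic, from 64581458 to 64581920 on chromosome 14 in WT, and carried TGANTCA. Its fold enrichment was 30.0 in Cho rep 1, 27.6 in Cho rep 2, 19.0 in WT and 19.9 in the double deletion. Its scaled pileup was 51.2, 120, 130.2 and 105, above that of the Sox7 promoter in every library. Sites at −33.0 kb, in an intron of Pinx1, and at −13.4 kb were also called in all libraries, with WT fold enrichments of 12.3 and 5.15.

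The Sox17 window was the emptiest. WT had no peak in it, Cho rep 1 had 1 at 3.37 kb with a fold enrichment of 3.38 and a pileup of 7, and the double deletion had 2, at 3.72 kb with 4.30 and at −24.4 kb with 3.69. Cho rep 2 had a strong peak at −23.4 kb with a fold enrichment of 18.7 and a pileup of 93. The annotated start of Sox17 differs between the annotations, with a gene of 5486 bp in NCBIM37 and 6499 bp in GRCm38. Measured from the 3′ end of the gene, the upstream summits of Cho rep 2 and the double deletion lay at 29.8 and 29.9 kb. The site was thus strong in Cho rep 2, near the lower limit of calling in the double deletion and not called in Cho rep 1 or WT.

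Around Sox18, whose promoter window had no peak, upstream sites were called in every library. The site at −7.38 kb, from 181413630 to 181413807 on chromosome 2 in WT, had fold enrichments of 18.2 in Cho rep 1, 17.7 in Cho rep 2, 13.2 in WT and 11.7 in the double deletion. The site at −3.96 kb had 10.6, 15.6, 9.60 and 10.9. Both were intergenic, and the gene with the TSS nearest to the first was Tcea2, whose promoter peak lay at −8.65 kb. The strongest peak of the window in Cho rep 1, 22.0, and in the double deletion, 13.5, lay at the promoter of Rgs19 near −22 kb.

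The third comparison was of WT with the double deletion. At the 6 promoters called in both, the log2 ratio of fold enrichment, deletion over WT, was 0.05 at Sox2, −0.28 at Sox4, 0.59 at Sox7, 0.26 at Sox8, 0.09 at Sox11 and −0.0029 at Sox12. The median was 0.07, and the median over all 13066 promoters called in both was 0.02. None of the 6 passed a 2-fold difference, as did 1.13% of all promoters in the higher and 0.0689% in the lower direction. The ratio of scaled pileups had a 95% exact interval that included 1 at each of the 6, and it excluded 1 at 4.98% of all promoters called in both. The median of this ratio was 0.918 at the 6 promoters and 0.838 over all promoters called in both. At Sox7, the largest, the pileups were 10 in WT and 23 in the double deletion, and the ratio was 1.33 (95% interval 0.607 to 3.12). At Sox4 it was 0.775 (0.479 to 1.27), and at Sox11 it was 1.0 (0.645 to 1.57). These intervals cover counting error only, and with pileups of 10 to 59 reads differences inside them were not detectable at this depth.

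Of the 72 WT window peaks, 68 were overlapped by a deletion peak, 94.4% (95% exact interval 86.4% to 98.5%), against 95.9% of all WT peaks. Of the 122 deletion window peaks, 63 were overlapped by a WT peak, 51.6% (42.4% to 60.8%), against 49.4% of all deletion peaks. Both intervals included the genome-wide value, but they cover counting error only and treat peaks clustered in the windows as independent draws. With equal numbers of the strongest peaks the second share was 90.9%, so the number of unshared deletion peaks depended on the length of the lists. Of the 59 deletion peaks without a WT peak, 19 (32.2%, 20.6% to 45.6%) were overlapped by a Cho rep 1 peak, against 27.3% of all such deletion peaks. A Cho rep 2 summit lay at the same distance from the TSS for 26 (44.1%), and 36 (61.0%, 47.4% to 73.5%) were found in at least 1 Cho replicate. Both counts leave out the Sox17 site at −24.4 kb, because the annotated start of Sox17 differs between the annotations. No genome-wide share is given for these further counts. Among all 59, the strongest by gene were at −12.6 kb of Sox10 with a fold enrichment of 7.89 and at −29.6 kb of Sox12 with 8.61. The others had 7.38 at 31.7 kb of Sox11, 27.0 kb of Sox18, 36.2 kb of Sox4 and −44.0 kb of Sox7, 7.31 at 20.5 kb of Sox8, 7.08 at −9.14 kb of Sox2 and 4.30 at 3.72 kb of Sox17. WT peaks without a deletion peak were few and weak, the strongest by gene being 5.88 at 31.5 kb of Sox7, 4.46 at 21.3 kb of Sox10 and 4.08 at 47.9 kb of Sox11.

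Fold enrichment was compared at the 59 window sites whose WT and deletion summits lay within 150 bp of each other, leaving out 9 overlapping pairs with summits farther apart. The median log2 ratio was 0.20, and it was 0.26 over 80633 such sites of the genome. A 2-fold higher value in the double deletion was seen at 3 sites, where 5.96% of all sites passed it, and a 2-fold lower value at 0, where 0.0769% did. The 3 sites were at −13.4 kb of Sox7, with 5.15 in WT and 11.7 in the double deletion, at 50.7 kb of Sox7, with 4.41 and 9.84, and at −44.1 kb of Sox11, with 5.15 and 11.5. Each rested on a WT pileup of 5 or 6 reads, and the interval of the scaled pileup ratio included 1, for example 2.11 (0.831 to 6.37) at the Sox11 site. The interval excluded 1 at 2 of the 59 sites, both lower in the double deletion, where 1.4% of all sites were lower and 0.446% higher by this measure. These were the Lmf1 promoter near Sox8, with a ratio of 0.632 (0.426 to 0.939), and the intronic site of Sox12 at 1.63 kb, with 0.620 (0.394 to 0.978). The median ratio was 1.01 over the 59 sites and 0.838 over all promoters called in both. Both intervals included the latter and lay below the former. The Sox12 site is distal, and no median over all distal sites is given. The intervals were not adjusted for the number of sites. Neither this pairing nor the one it replaced was set before the values had been looked at. The replaced one took the strongest overlapping deletion peak for each WT peak and gave 68 pairs, of which 6 were past 2-fold higher, against 7.79% of 87274 pairs of the genome, and 0 were past 2-fold lower, against 0.071%. The interval then excluded 1 at 5 pairs, with 3 higher, against 1.99% of all pairs, and 2 lower, against 1.33%.

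**Figure D4:**
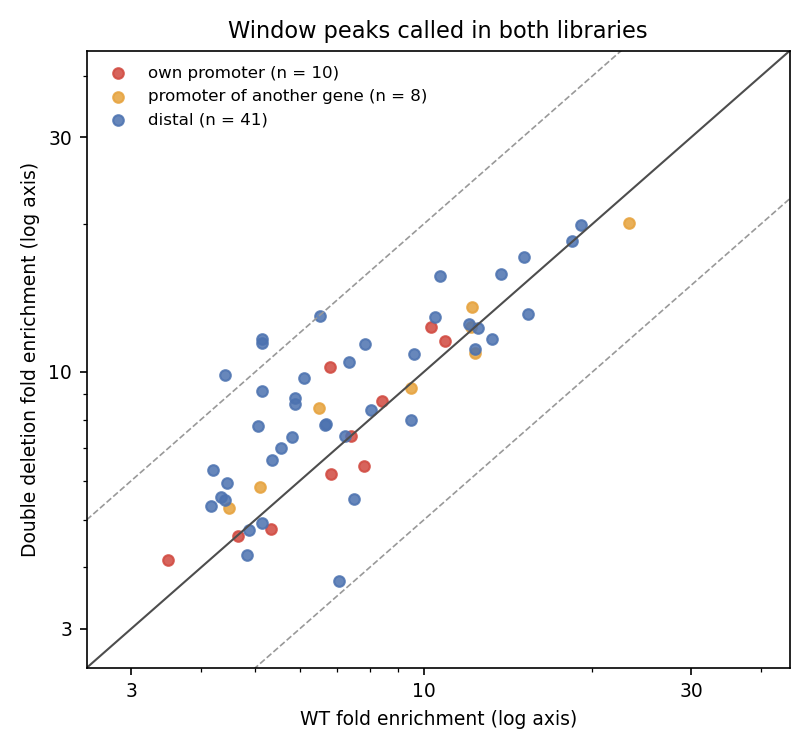
Fold enrichment in WT (x axis) and the double deletion (y axis) at the 59 window sites with summits within 150 bp of each other, on log axes, coloured by position. The solid line marks equal values and the dashed lines a 2-fold difference, past which 3 distal sites lie in the higher direction and none in the lower.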

How the data were processed

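ATAC-Seq peak lists of 4 libraries of primary rib chondrocytes were used, 1 list per library. Per the study methods and the submitters' processing notes, the authors trimmed reads with fastp, aligned them with Bowtie2 2.4.4, removed duplicates with Picard and called peaks with MACS2 2.2.4 at a q-value of 0.05. The deposited fold enrichment is a ratio, with 1 added to pileup and background. The authors' lists also hold the −log10 of the p-value and q-value, and the deposited score is the −log10 q-value times 10, cut to a whole number. All move with depth.

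The strongest of several summits per interval was kept in Cho rep 1. Summit pileups were solved from the p-value and fold enrichment with a Poisson model, which recovered 100% of 20000 simulated peaks and gave a whole pileup whose −log10 p-value was within 0.01 of the deposited one for 98.3% to 100% of peaks. Gene positions were those of GENCODE vM1 (NCBIM37) and, for Cho rep 2, RefSeq (GRCm38.p6). No coordinates were converted. Of the 9 genes, 5 had a RefSeq promoter sequence, and each matched NCBIM37 once, placing the RefSeq TSS 0 to 14 bp from the GENCODE TSS. Overlaps of at least 1 bp used bedtools 2.31.1. Scripts used Python 3.11.15 with pysam 0.24.0, matplotlib 3.10.9, numpy 2.4.6, scipy 1.17.1 and pandas 2.3.3. Shares have Clopper-Pearson intervals and pileup ratios exact conditional binomial intervals, at 95%.

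No test across genes was run, since neither genotype had a replicate. All 9 genes, the strongest window peak per library, window peaks of all 4 libraries and the strongest unshared peak per gene were named. The genes and the marker lists were chosen with earlier results of these data known. Alternatives covered other promoter windows and flanks, any transcript TSS, equal numbers of strongest peaks, a −log10 q of at least 5, 50% overlap, other measures and each Cho rep alone. Both pairings of WT and deletion peaks, the CpG window of 500 bp on each side and its limit of 0.6 were set after the data had been examined. Signal tracks were not analysed here.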

Additional observations from a re-analysis of the deposited data

How the results depend on the processing

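The count of genes with a promoter peak was 5 or 6 in Cho rep 1, 6 to 8 in Cho rep 2, 6 in WT and 6 to 8 in the double deletion over the windows of 500 bp and 2 kb, any transcript TSS, a −log10 q of at least 5 and equal numbers of strongest peaks. Window peaks followed the window. With 25 kb on each side there were 39 in Cho rep 1, 79 in Cho rep 2 and 80 in the double deletion, and with 100 kb there were 98, 202 and 210, with 118 in WT. Among the 76242 strongest peaks of each library, the counts were 63 in Cho rep 2, 58 in WT and 55 in the double deletion. Restricted to peaks whose nearest TSS was that of the gene, they were 78 in Cho rep 2, 44 in WT and 78 in the double deletion. The share of deletion window peaks overlapped by WT was 37.7% at an overlap of 50% and 90.9% with equal numbers of peaks. The median log2 ratio of deletion to WT at promoters was −0.13 by scaled pileup and 0.62 by −log10 q, and by −log10 q it was 0.75 at Sox11 and 0.50 at Sox12. The Cho means on the scaled pileup were 18.7 at Sox2, 52.9 at Sox4, 17.9 at Sox7, 37.6 at Sox8, 50.7 at Sox11 and 68.5 at Sox12. With either replicate alone, the fold enrichment ranged from 8.45 to 14.7 at Sox2, 8.65 to 19.0 at Sox4, 4.22 to 8.91 at Sox7, 6.97 to 7.60 at Sox8, 15.6 to 15.9 at Sox11 and 11.1 to 24.9 at Sox12. Of the recomputed values, 70 stayed within their spread, counting interval or a factor of 1.5, and 24 did not. Some of the 70 could not have moved. With 2 replicates, each lies within the SD of their mean, and the 76242 strongest peaks are the whole Cho rep 1 list. Among the 24 were the Cho means on the scaled pileup, which is another scale. These counts are therefore not a measure of stability. With the strongest overlapping deletion peak as the partner of each WT peak, the pairing used before the one by nearest summits and, like it, chosen after seeing the data, 6 window sites in place of 3 were past 2-fold higher in the double deletion and 5 in place of 2 had an interval that excluded 1. No paired analysis was possible because neither genotype had a second library. Pileups of 4 to 10 reads limit weak sites.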

Other observations

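Genes for known partners and regulators of Sox proteins were read in the same way. Of 21 such genes, 13 had a promoter peak in Cho rep 1, 15 in Cho rep 2, 13 in WT and 16 in the double deletion. These were 61.9%, 71.4%, 61.9% and 76.2%, against 55.3%, 62.7%, 59% and 64.7% of all promoters. The median fold enrichment of the 21 genes where called was 8.45, 9.88, 11.2 and 9.35. Pou5f1, the octamer factor that binds DNA together with Sox2 in pluripotent cells, had no promoter peak in any library, and neither did Pax6, which pairs with Sox2 in the developing lens, the endothelial factor Etv2 or the muscle and vascular factor Mef2c, at its annotated gene start.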
